A study of Mus musculus with 6 samples.

Results

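The glycolysis, pyruvate and pentose phosphate genes were 36 named mouse genes, described here across wild-type Treg, Th17 and naive T cells. They were chosen by name from metabolic pathways: glucose entry, the glycolytic enzymes, lactate and pyruvate handling, and the pentose phosphate branch. All 36 were found in the deposited count table, and Aldoa stood there under 2 gene identifiers, so the set held 37 of the table's 54532 identifiers. All 37 had enough counts to be among the 15543 genes tested.

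RNA was sequenced from 2 libraries of each cell type, 6 in all, numbered 1 and 5 in the deposited table. Every library is labelled wild type (WT), untreated and from thymus. Treg cells, governed by Foxp3, hold immune reactions in check. Th17 cells help inflammation along by releasing interleukin-17, and naive T cells have not yet been activated by antigen. The labels give no age and do not say whether the Treg and Th17 cells were sorted directly or made in culture, and effects of such handling cannot be told apart from those of cell type.

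Glycolysis splits glucose into pyruvate in the cytosol. Pyruvate is either reduced to lactate and exported, or carried into mitochondria and oxidised by pyruvate dehydrogenase, which the pyruvate dehydrogenase kinases switch off. The pentose phosphate branch diverts glucose 6-phosphate to make NADPH and ribose 5-phosphate for nucleotides. Activated T cells are known for a high glycolytic rate, and Th17 cells in particular are known to depend on it.

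Total counts ranged from 16458939 to 17901331 per library, and levels are given as CPM, the usual depth-scaled count, on library sizes adjusted by TMM, edgeR's trimmed mean method. A count of 3, taken as the floor, came to 0.161 to 0.207 CPM; it covers counting error only. Foxp3 and Il17a followed the labels. Foxp3 was at 1009 CPM in Treg, 0.697 CPM in Th17 and 14.3 CPM in naive cells. Il17a was at 415 CPM in Th17 cells and 0 counts elsewhere. In Treg, Th17 and naive cells Il2ra averaged 2547, 1715 and 14.8 CPM and Ikzf2 31.6, 3.19 and 19.8 CPM. Ctla4 was higher in Th17 than Treg cells, at 201, 290 and 14.9 CPM in that order. The 4 Th17 markers summed to 15.7 to 28.0, 2786 to 3001 and 1.04 to 1.10 CPM. The 4 naive T markers summed to 1172 to 1190, 924 to 1186 and 3257 to 3290 CPM. The 5 B cell markers summed to 4.86 to 6.53 CPM in Treg, 4.82 to 6.02 CPM in Th17 and 44.4 to 54.3 CPM in naive libraries, where all 5 were detected. The 6 myeloid markers summed to 2.98 to 6.17, 1.29 to 2.46 and 24.6 to 31.6 CPM in Treg, Th17 and naive libraries. The 6 thymocyte markers summed to 21.1 to 26.7, 13.3 to 21.4 and 30.9 to 38.3 CPM in the same order, with Dntt at 0.224, 4.83 and 9.91 CPM, Cd8b1 at 9.87, 9.68 and 21.3 CPM, Cd8a at 11.3, 2.71 and 3.39 CPM and Rag1 at 2.32, 0.161 and 0 CPM on average. Of the 4 thymic epithelial markers Foxn1 was at 0 everywhere, and their sum of 68.8 to 81.7 CPM in Treg libraries, against at most 0.0535 CPM in Th17 and 8.65 CPM in naive libraries, was nearly all Epcam (74.6 CPM in Treg cells). The 3 NK markers summed to 43.6 to 66.0, 0.322 to 0.375 and 9.05 to 17.1 CPM, nearly all of it Nkg7 in Treg libraries, where Ncr1 and Klrb1c were at 0. The 4 erythroid markers summed to 0.859 to 7.75, 0.484 to 21.8 and 2.01 to 2.39 CPM. The part of such other cells in the results below was not tested.

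Th17 cells against naive cells. Most of the pathway stood higher in Th17 cells: 21 of 37 identifiers rose and 3 fell (edgeR quasi-likelihood F-test, Benjamini-Hochberg adjusted p under 0.05 over all tested genes). The hexokinase gene Hk2, the lactate exporter gene Slc16a3 and the enzymes Pgam1 and Tpi1 rose most among members above 10 CPM in Th17 cells. The kinase gene Pdk1, the enolase gene Eno3 and the regulator Pfkfb3 fell. Over all genes tested, 57.7% passed, 29.3% as higher and 28.4% as lower, so the share of members called (64.9%) was near that of all genes. The libraries of both types did not overlap for 33 of 37 members, against 78.8% of all tested genes. Most member calls were in the higher direction. Fold changes are given on the log2 scale with an approximate SE after ±. Nothing in the labels assigns the libraries of a type to different mice or cultures, and the p-values therefore reflect spread among libraries that may be technical replicates. The median log2 fold change was 0.78 over the members and -0.03 over all tested genes. In bulk RNA, fewer cells of a type and less RNA per cell cannot be told apart. With libraries scaled by total count in place of TMM, the log2 fold changes moved up by 0.24 at the median gene, 25 members rose and 2 fell, and 62.6% instead of 50.8% of all calls were higher.

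Treg cells against naive cells. Hk2, Slc16a3, Aldoc, Tpi1, Pdk2 and Pgam1 rose most in Treg cells among members above 5 CPM there, and 4 of the 7 pentose phosphate genes rose too. The abundant genes Pkm, Eno1, Ldha and Pgk1 did not pass. Of 37 identifiers, 16 rose and 4 fell, where 43.4% of all tested genes passed, 23.6% as higher and 19.9% as lower. Libraries did not overlap for 30 of 37 members, against 71.7% of all tested genes. The 4 that fell were Pdk1, Slc2a3, Ldhb, whose call ended without Treg library 1 (adjusted p = 0.0563), and Gapdh, whose level is uncertain because of near-identical copies (below). The median log2 fold change was 0.30 over the members and -0.00 over all tested genes. With total-count scaling, which moved the median gene up by 0.18, 18 members rose and 4 fell, and 67.0% instead of 54.3% of all calls were higher. Both comparisons with naive cells share the naive libraries. Without Treg library 1, 11 members rose and 3 fell, and without Treg library 5, 11 rose and 4 fell.

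Treg cells against Th17 cells. Glycolysis and lactate genes stood lower in Treg cells: 19 of 37 identifiers fell and 3 rose, where 38.4% of all tested genes passed, 19.4% as lower and 19.0% as higher. The median log2 fold change was -0.52 over the members and 0.02 over all tested genes. Libraries did not overlap for 29 of 37 members, against 72.5% of all tested genes. By step, 8 of 14 upper glycolysis identifiers fell and 0 rose, 5 of 6 lower glycolysis genes fell and 1 rose, all 4 lactate genes fell, 2 of 6 pyruvate genes fell and 2 rose, and 0 of 7 pentose phosphate genes passed. Of the last group Tkt (adjusted p = 0.0628) and Rpe (adjusted p = 0.0514) missed the threshold and passed as lower in 7 of 12 alternative analyses each, and steps were not tested against each other. The 3 that rose were Pdk1, Pdk2 and Eno3. With any 1 Th17 or Treg library left out, 13 to 16 members fell and 3 rose.

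**Figure D1:**
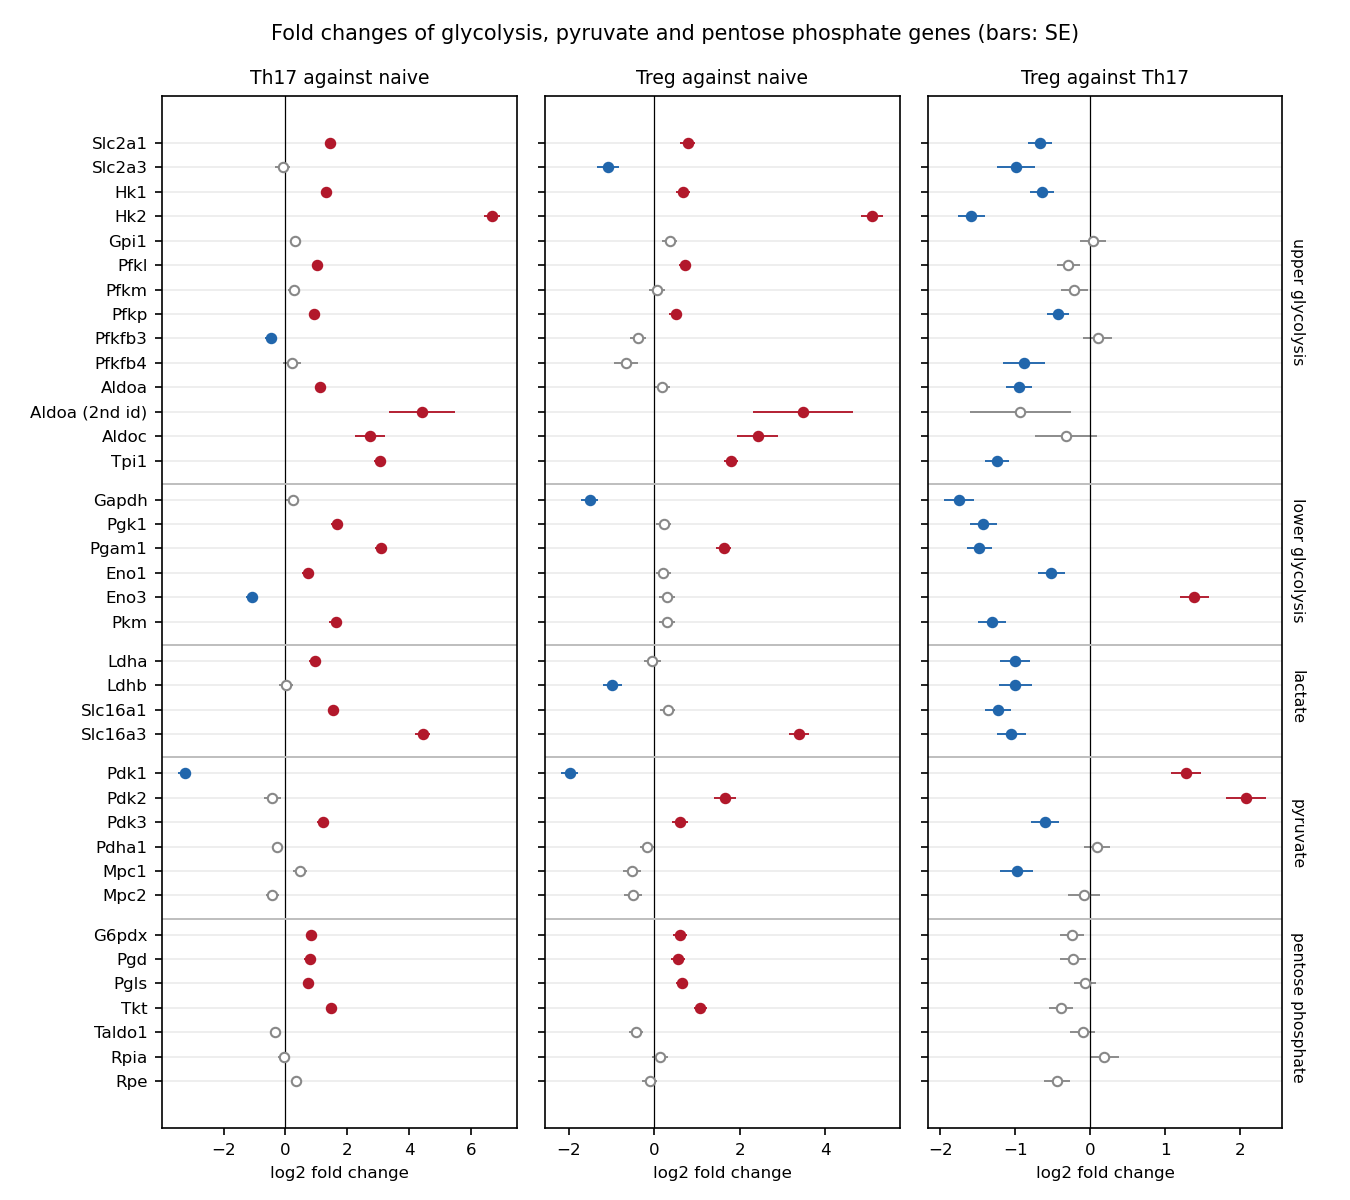
Log2 fold change (x axis, a separate scale in each panel) of each of the 37 identifiers (y axis, grouped by pathway step) in Th17 against naive, Treg against naive and Treg against Th17 cells, with bars for the approximate SE. Filled red points rose and filled blue points fell at adjusted p under 0.05, and open points did not pass. Hk2 stands farthest right in both comparisons with naive cells, at 6.69 and 5.10, and the lactate genes are all blue in the third panel.

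The promoter windows of 6 chosen members are shown, which do not stand for the others. Hk2, Slc16a3, Pgam1 and Ldha rose in Th17 cells, and the kinase genes Pdk1 and Pdk2 moved apart between the types. Each window holds the 250 bases before the RefSeq start site nearest the table's gene start (GRCm38.p6, gene strand, 5′ to 3′). For Slc16a3 and Ldha this start site lies inside the gene span of the deposited table. Capitals mark the letters ACGTG and CACGTG on either strand. ACGTG is 1 form of the core read by hypoxia-inducible factors. The other form, GCGTG, was not sought and is left unmarked where it occurs. CACGTG is the palindromic E-box read by Myc and related factors. Each CACGTG also holds ACGTG on both strands.
Hk2 (chr6:82774455-82774704, - strand): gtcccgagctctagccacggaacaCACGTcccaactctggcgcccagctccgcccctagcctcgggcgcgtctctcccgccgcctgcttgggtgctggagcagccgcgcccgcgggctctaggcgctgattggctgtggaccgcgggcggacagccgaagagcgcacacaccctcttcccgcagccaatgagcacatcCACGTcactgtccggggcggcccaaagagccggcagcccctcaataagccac
Slc16a3 (chr11:120948817-120949066, + strand): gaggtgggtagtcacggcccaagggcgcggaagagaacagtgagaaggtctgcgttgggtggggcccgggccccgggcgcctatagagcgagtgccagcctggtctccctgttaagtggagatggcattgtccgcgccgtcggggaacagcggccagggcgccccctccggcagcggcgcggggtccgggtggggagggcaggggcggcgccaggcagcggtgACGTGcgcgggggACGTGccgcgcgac
Pgam1 (chr19:41911621-41911870, + strand): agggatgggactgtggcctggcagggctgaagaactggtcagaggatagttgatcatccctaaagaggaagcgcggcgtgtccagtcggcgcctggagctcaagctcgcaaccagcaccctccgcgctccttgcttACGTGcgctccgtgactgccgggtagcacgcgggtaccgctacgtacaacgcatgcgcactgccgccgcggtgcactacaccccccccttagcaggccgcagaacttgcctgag
Ldha (chr7:46845554-46845803, + strand): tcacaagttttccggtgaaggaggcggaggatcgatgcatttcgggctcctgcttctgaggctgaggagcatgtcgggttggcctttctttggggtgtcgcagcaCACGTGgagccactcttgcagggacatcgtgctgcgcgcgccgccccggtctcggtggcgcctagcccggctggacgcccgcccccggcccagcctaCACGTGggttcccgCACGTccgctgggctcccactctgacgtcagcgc
Pdk1 (chr2:71872974-71873223, + strand): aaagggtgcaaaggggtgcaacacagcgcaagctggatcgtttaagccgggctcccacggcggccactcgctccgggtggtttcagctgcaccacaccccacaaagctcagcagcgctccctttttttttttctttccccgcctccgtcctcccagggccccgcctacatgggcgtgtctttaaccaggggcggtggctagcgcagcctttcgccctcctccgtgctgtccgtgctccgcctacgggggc
Pdk2 (chr11:95041372-95041621, - strand): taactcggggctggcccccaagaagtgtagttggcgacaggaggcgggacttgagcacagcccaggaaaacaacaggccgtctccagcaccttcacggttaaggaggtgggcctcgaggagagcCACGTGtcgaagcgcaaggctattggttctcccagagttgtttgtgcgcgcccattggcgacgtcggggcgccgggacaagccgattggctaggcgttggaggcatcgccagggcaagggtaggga
Hk2 held 2 separate ACGTG matches, Slc16a3 held 2, Pgam1 held 1, Pdk2 held 1 CACGTG and Pdk1 held 0 of either. Ldha held 2 CACGTG and 1 further ACGTG. Of the other members that rose in Th17 against naive cells, Slc2a1, Pgk1, Slc16a1 and Pdk3 held ACGTG. Hk1, Pfkl, Pfkp, Aldoa, Aldoc, Tpi1, Eno1, Pkm, G6pdx, Pgd, Pgls and Tkt rose too and held 0 of either. Of the 36 members 35 had a window in the RefSeq table, Slc2a3 being without one. ACGTG was in 11 of these 35 windows (31.4%), against 16.6% of all 32851 windows of that length, and CACGTG was in 4 (11.4%), against 6.02% of all. Each member entered with 1 window, while the background held every window, alternative start sites and untested genes included. The sets are therefore unlike, and the difference in shares was not tested. A match is a description of letters and not of binding.

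Glucose entry. Gene positions are those of the deposited table (mm10). Slc2a1 (GLUT1, chromosome 4, 119108711 to 119137983), the glucose transporter gene known to rise on T cell activation, stood at 59.8 and 61.2 CPM in Treg libraries, 100.45 and 92.5 CPM in Th17 libraries and 39.8 and 30.8 CPM in naive libraries. All Th17 libraries lay above all Treg libraries, and these above all naive libraries. The log2 fold change was 1.45 ± 0.17 (adjusted p = 4.2e-06) in Th17 against naive cells, 0.78 ± 0.17 (adjusted p = 0.00172) in Treg against naive cells and -0.67 ± 0.16 (adjusted p = 0.00449) in Treg against Th17 cells. Slc2a3 (GLUT3, chromosome 6, 122727809 to 122801640), a high-affinity glucose transporter gene, was at 26.7 and 21.8 CPM in Treg libraries, 33.4 and 62.9 CPM in Th17 libraries and 51.0 and 51.5 CPM in naive libraries. Treg libraries lay lowest, Th17 library 5 lay highest and Th17 library 1 lay below both naive libraries. Slc2a3 fell in Treg cells at a log2 fold change of -1.08 ± 0.25 (adjusted p = 0.00267) against naive cells and -0.99 ± 0.25 (adjusted p = 0.00523) against Th17 cells. The second call ended without Th17 library 5 (log2 fold change -0.46, adjusted p = 0.165) and without Treg library 5 (-0.86, adjusted p = 0.0506). In Th17 against naive cells Slc2a3 did not pass (-0.09 ± 0.24), and it passed as lower without Th17 library 5 (-0.61, adjusted p = 0.0482). Per length, Slc2a1 made up 83.8 ± 2.18% of the summed Slc2a1 and Slc2a3 level in Treg, 80.7 ± 7.72% in Th17 and 58.5 ± 4.59% in naive cells (SD, n = 2 each). These shares depend on the deposited lengths, 3506 bases for Slc2a1 and 7245 for Slc2a3. The longest coding transcripts have 3260 and 3959 bases. In CPM Slc2a3 stood above Slc2a1 in both naive libraries, so which of them leads there depends on the length used.

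Hexokinases. Hk2 (chromosome 6, 82725025 to 82774454), which encodes the inducible hexokinase that traps glucose as glucose 6-phosphate, was almost absent from naive cells, at 33.8 and 28.5 CPM in Treg libraries, 96.0 and 91.9 CPM in Th17 libraries and 0.711 and 1.11 CPM in naive libraries. The naive libraries held 11 and 16 counts, and no groups overlapped. Hk2 rose by 6.69 ± 0.26 (adjusted p = 8.7e-11) in Th17 cells and 5.10 ± 0.26 (adjusted p = 1.8e-09) in Treg cells, each against naive cells, and was lower in Treg than Th17 cells at a log2 fold change of -1.59 ± 0.18 (adjusted p = 6.8e-06). Hk1 (chromosome 10, 62268855 to 62379908), the widely expressed hexokinase gene, was at 173 and 150.27 CPM in Treg libraries, 259 and 247 CPM in Th17 libraries and 106 and 96.4 CPM in naive libraries. It kept the same order of types with smaller steps, at log2 fold changes of 1.32 ± 0.16 (adjusted p = 6.3e-06) in Th17 cells and 0.67 ± 0.16 (adjusted p = 0.00309) in Treg cells, each against naive cells, and -0.64 ± 0.16 (adjusted p = 0.00448) in Treg against Th17 cells. Without Treg library 1 the Treg rise ended (0.58, adjusted p = 0.0565), and without Treg library 5 the Treg to Th17 difference did (-0.55, adjusted p = 0.0838). Per length, Hk2 made up 21.5 ± 0.318% of the summed Hk1 and Hk2 level in Treg, 34.7 ± 0.0144% in Th17 and 1.28 ± 0.472% in naive cells (SD, n = 2 each). The deposited lengths behind these shares are 8532 bases for Hk1 and 5969 for Hk2. The longest coding transcripts have 4278 and 5513 bases, on which the Hk2 share would be smaller. Gpi1, which isomerises glucose 6-phosphate, was at 344 and 343 CPM in Treg libraries, 302 and 364 CPM in Th17 libraries and 274 and 262 CPM in naive libraries. Its values lay close together, and it did not pass in Th17 against naive (0.31 ± 0.17), Treg against naive (0.36 ± 0.17) or Treg against Th17 cells (0.04 ± 0.17). It passed as higher with total-count scaling in Th17 (0.55, adjusted p = 0.0139) and Treg (0.54, adjusted p = 0.0209) against naive cells.

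Phosphofructokinases. Phosphofructokinase commits sugar to glycolysis, and its liver-type, platelet-type and muscle-type subunits come from Pfkl, Pfkp and Pfkm. Pfkl was at 99.2 and 86.8 CPM in Treg libraries, 117 and 109.95 CPM in Th17 libraries and 59.2 and 53.5 CPM in naive libraries, rising by 1.01 ± 0.15 (adjusted p = 6.2e-05) in Th17 and 0.72 ± 0.15 (adjusted p = 0.00164) in Treg cells. Pfkp was at 234 and 229 CPM in Treg libraries, 307 and 314 CPM in Th17 libraries and 172 and 156 CPM in naive libraries, rising by 0.92 ± 0.16 (adjusted p = 1.6e-04) in Th17 and 0.50 ± 0.16 (adjusted p = 0.0181) in Treg cells. For both genes every Th17 library lay above every Treg library and these above every naive library. Pfkp was also lower in Treg than Th17 cells (-0.43 ± 0.15, adjusted p = 0.0419), whereas Pfkl did not pass there (-0.29 ± 0.15). The Pfkp difference between Treg and Th17 cells ended without Th17 library 1 (-0.44, adjusted p = 0.148), Th17 library 5 (-0.41, adjusted p = 0.171), Treg library 1 (-0.43, adjusted p = 0.198) or without Treg library 5 (-0.42, adjusted p = 0.207). Its rise in Treg cells ended without naive library 5 (0.44, adjusted p = 0.0557), Treg library 1 (0.50, adjusted p = 0.111) or without Treg library 5 (0.52, adjusted p = 0.0868). Pfkm was at 22.3 and 25.0 CPM in Treg libraries, 27.0 and 27.7 CPM in Th17 libraries and 22.9 and 22.2 CPM in naive libraries and passed in none of the 3 comparisons (0.28 in Th17 cells and 0.07 in Treg cells, each against naive cells, and -0.21 in Treg against Th17 cells). With total-count scaling it passed as higher in Th17 cells (0.51, adjusted p = 0.0317).

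PFKFB enzymes. Pfkfb3 and Pfkfb4 encode bifunctional enzymes that set the level of fructose 2,6-bisphosphate, an activator of phosphofructokinase. Pfkfb3 was at 41.3 and 37.1 CPM in Treg libraries, 31.3 and 41.9 CPM in Th17 libraries and 55.3 and 46.4 CPM in naive libraries. It was lower in Th17 than naive cells at a log2 fold change of -0.48 ± 0.19 (adjusted p = 0.0427), a narrow call that ended in 8 of 12 alternative analyses, without naive library 1 (-0.35, adjusted p = 0.201), Th17 library 1 (-0.26, adjusted p = 0.377), Treg library 1 (-0.47, adjusted p = 0.0622) and Treg library 5 (-0.46, adjusted p = 0.0671) among them. Pfkfb4 was at 8.07 and 6.66 CPM in Treg libraries, 11.8 and 15.3 CPM in Th17 libraries and 14.5 and 8.92 CPM in naive libraries, with naive libraries spread widely and overlapping the Th17 ones. It fell in Treg against Th17 cells (-0.88 ± 0.28, adjusted p = 0.0234), a call that ended without Th17 library 5 (-0.68, adjusted p = 0.150), Treg library 1 (-1.01, adjusted p = 0.0531) or without Treg library 5 (-0.75, adjusted p = 0.134). In Treg against naive cells Pfkfb4 did not pass (-0.67 ± 0.28), and it passed as lower without naive library 5 (-0.96, adjusted p = 0.0230).

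Aldolases and triose phosphate isomerase. Aldolase cleaves fructose 1,6-bisphosphate and Tpi1 interconverts the triose products. Aldoa (ENSMUSG00000030695, chromosome 7, 126795234 to 126800751) was at 368 and 305 CPM in Treg libraries, 617 and 681 CPM in Th17 libraries and 270.38 and 322 CPM in naive libraries. It was higher in Th17 than naive cells by 1.13 ± 0.18 (adjusted p = 1.0e-04) and lower in Treg than Th17 cells at a log2 fold change of -0.95 ± 0.18 (adjusted p = 8.2e-04), while Treg and naive libraries overlapped (0.18 ± 0.18). The other Aldoa identifier (ENSMUSG00000114515, chromosome 7, 126800790 to 126809108) lies just upstream of it and had 6 and 10 counts in Treg, 13 and 19 in Th17 and 1 and 0 in naive libraries. It passed as higher in Th17 (adjusted p = 0.00268) and Treg cells (adjusted p = 0.0254), with ratios of 25.7 (95% exact counting interval 4.29 to 1046) and 13.4 (2.08 to 561). The Treg call ended when any library other than naive library 1 was left out (adjusted p = 0.0615 to 0.149), and without naive library 1, where naive cells had 0 counts left, it stood at adjusted p = 0.0491 in Treg and 0.0133 in Th17 cells. Without naive library 5 the Th17 call stood at adjusted p = 0.0352. Aldoc, the aldolase C gene, was low throughout at 5.38 and 8.95 CPM in Treg libraries, 4.87 and 13.0 CPM in Th17 libraries and 1.55 and 1.11 CPM in naive libraries. The libraries of Treg and of Th17 cells were spread widely, all above the naive ones, and Aldoc rose by 2.74 ± 0.48 (adjusted p = 2.2e-04) in Th17 and 2.42 ± 0.48 (adjusted p = 0.00100) in Treg cells; without Th17 library 5 the Th17 value was 1.88 (adjusted p = 0.00268). Tpi1 (chromosome 6, 124810586 to 124814296) was at 131 and 148 CPM in Treg libraries, 329 and 330.33 CPM in Th17 libraries and 36.8 and 43.4 CPM in naive libraries. The groups were far apart, with log2 fold changes of 3.04 ± 0.17 (adjusted p = 2.4e-09) in Th17 cells and 1.80 ± 0.16 (adjusted p = 7.1e-07) in Treg cells, each against naive cells, and -1.24 ± 0.16 (adjusted p = 2.4e-05) in Treg against Th17 cells.

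**Figure D2:**
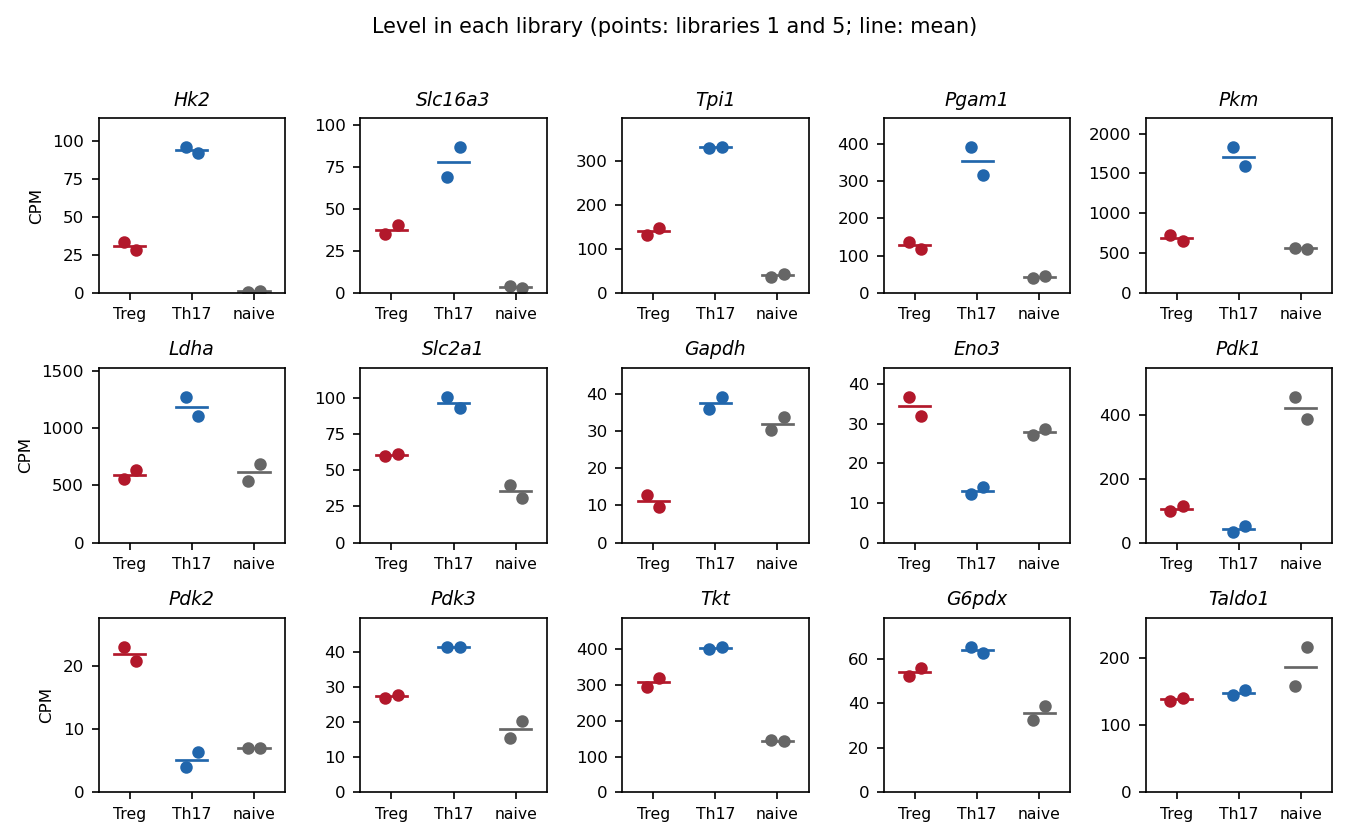
CPM (y axis, from 0) of 15 members in Treg, Th17 and naive libraries, with points for libraries 1 and 5 and lines for their means. Hk2, Slc16a3, Tpi1, Pgam1 and Slc2a1 are highest in Th17 and lowest in naive cells, Pkm and Ldha are high in Th17 cells with Treg close to naive, and Pdk1 is highest in naive cells.

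Lower glycolysis. Pgam1 (chromosome 19, 41911871 to 41918664), phosphoglycerate mutase, was at 136 and 118 CPM in Treg libraries, 391 and 316 CPM in Th17 libraries and 38.6 and 44.3 CPM in naive libraries. No groups overlapped, at 3.09 ± 0.18 (adjusted p = 4.0e-09) in Th17 cells and 1.62 ± 0.18 (adjusted p = 3.9e-06) in Treg cells, each against naive cells, and -1.48 ± 0.17 (adjusted p = 8.9e-06) in Treg against Th17 cells. Pgk1 (chromosome X, 106187100 to 106203699), phosphoglycerate kinase, which makes ATP, was at 223 and 254 CPM in Treg libraries, 667 and 616 CPM in Th17 libraries and 179 and 229.63 CPM in naive libraries. Pkm (chromosome 9, 59656368 to 59679375), the pyruvate kinase gene of T cells, was at 727 and 647 CPM in Treg libraries, 1829 and 1590.08 CPM in Th17 libraries and 563 and 551 CPM in naive libraries. Both genes were high in Th17 libraries. Treg and naive libraries overlapped for Pgk1, and for Pkm the Treg libraries lay above the naive ones. Pgk1 rose by 1.65 ± 0.18 (adjusted p = 2.9e-06) and Pkm by 1.62 ± 0.20 (adjusted p = 6.7e-06) in Th17 against naive cells, and in Treg against Th17 cells they fell at a log2 fold change of -1.43 ± 0.18 (adjusted p = 2.3e-05) and -1.31 ± 0.19 (adjusted p = 8.8e-05). In Treg against naive cells neither passed, at 0.22 ± 0.18 for Pgk1 and 0.30 ± 0.19 for Pkm. These counts do not separate the M1 and M2 splice forms of Pkm.

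Enolases. Eno1 (chromosome 4, 150236721 to 150248879), which encodes alpha-enolase, was at 692 and 686 CPM in Treg libraries, 1051 and 928 CPM in Th17 libraries and 561 and 634 CPM in naive libraries. It rose in Th17 against naive cells (0.73 ± 0.18, adjusted p = 0.00375) and did not pass in Treg against naive cells (0.21 ± 0.18). It was lower in Treg than Th17 cells (-0.52 ± 0.18, adjusted p = 0.0367), a call that ended without Th17 library 1 (-0.43, adjusted p = 0.221), Th17 library 5 (-0.61, adjusted p = 0.0675), Treg library 1 (-0.52, adjusted p = 0.197) or without Treg library 5 (-0.52, adjusted p = 0.189). Eno3 (chromosome 11, 70657202 to 70662513), known as the muscle enolase gene, ran the other way at 36.7 and 32.0 CPM in Treg libraries, 12.2 and 14.1 CPM in Th17 libraries and 27.1 and 28.6 CPM in naive libraries. Th17 libraries lay lowest at a log2 fold change of -1.09 ± 0.19 (adjusted p = 2.6e-04) against naive cells, and Treg libraries stood above Th17 by 1.39 ± 0.19 (adjusted p = 5.5e-05) without passing against naive cells (0.30 ± 0.19). Per length, Eno3 made up 13.4 ± 1.06% of the summed Eno1 and Eno3 level in Treg, 3.97 ± 0.726% in Th17 and 12.6 ± 0.505% in naive cells (SD, n = 2 each). The size of these shares depends on the deposited lengths, 5379 bases for Eno1 and 1739 for Eno3. Their longest coding transcripts have 2027 and 1564 bases, on which the Eno3 share would be smaller. Eno2, which encodes the enolase known from neurons, was outside the 36 and averaged 26.0 CPM over all libraries; it rose by 5.07 ± 0.28 (adjusted p = 2.0e-09) in Th17 cells and 3.87 ± 0.28 (adjusted p = 6.0e-08) in Treg cells, each against naive cells.

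Gapdh and copied genes. Gapdh (chromosome 6, 125161715 to 125166467), the glyceraldehyde 3-phosphate dehydrogenase gene, was at 12.8 and 9.61 CPM in Treg libraries, 35.8 and 39.2 CPM in Th17 libraries and 30.2 and 33.7 CPM in naive libraries. Treg libraries lay below all others at a log2 fold change of -1.51 ± 0.20 (adjusted p = 3.5e-05) against naive and -1.75 ± 0.20 (adjusted p = 1.0e-05) against Th17 cells, while Th17 against naive did not pass (0.23 ± 0.20). The level is low beside neighbouring steps of the pathway: per kilobase (kb) of gene length, Th17 cells had 9.07 ± 0.574 CPM of Gapdh and 286 ± 16.2 CPM of Pgk1 (SD, n = 2 each). At least 95% identity over 200 or more aligned bases was found between the Gapdh transcript and those of 78 other genes, 75 of them annotated as pseudogenes. Reads assigned to those copies came to 28.6 and 21.7 CPM in Treg, 46.8 and 62.1 CPM in Th17 and 14.5 and 18.7 CPM in naive libraries. The copies thus held 225% of the Gapdh level in Treg, 145% in Th17 and 52.1% in naive cells, so the Gapdh values are uncertain. The copies alone ranked Treg above naive libraries, opposite to Gapdh itself, and Treg below Th17 libraries, as Gapdh did. Gapdh and its copies together came to 41.4 and 31.3 CPM in Treg, 82.6 and 101 CPM in Th17 and 44.7 and 52.4 CPM in naive libraries, a sum that was not tested and was lowest in Treg libraries. Mpc1, below, had 2 pseudogene copies at 12.1 and 13.8 CPM in Treg, 23.7 and 33.5 CPM in Th17 and 10.7 and 14.7 CPM in naive libraries, close to or above its own level. For the other members with copies (Eno1, Gpi1, Ldha, Ldhb, Pgam1, Pgk1, Pkm and Tpi1) the copies held at most 3.07% of the gene's own mean level.

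**Figure D3:**
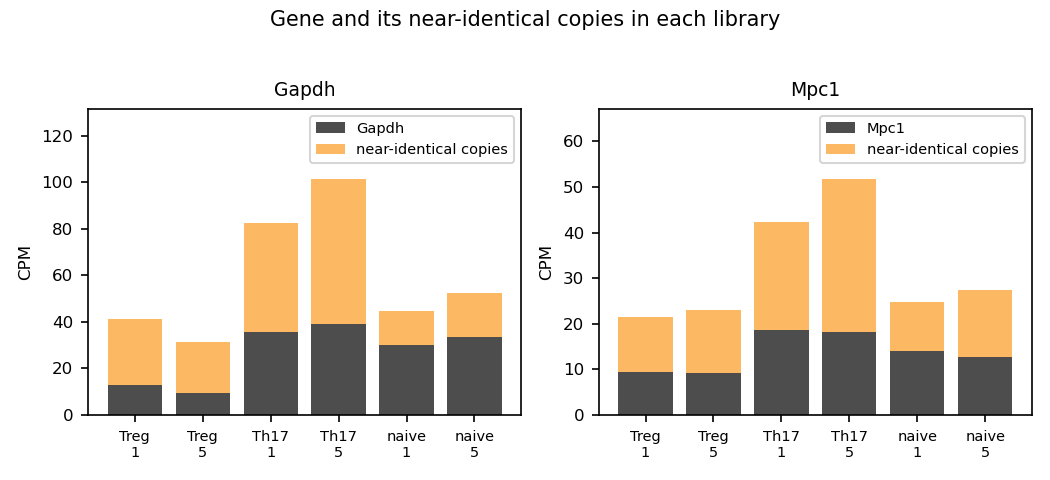
CPM (y axis, from 0) assigned in each Treg, Th17 and naive library to Gapdh and to Mpc1 (dark) and, stacked on top, to genes whose transcripts are at least 95% identical over 200 or more bases (light). The copies hold more reads than Gapdh in Treg and Th17 libraries and fewer in naive ones.

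Lactate. Lactate dehydrogenase interconverts pyruvate and lactate, with Ldha and Ldhb encoding its subunits. Ldha (chromosome 7, 46841475 to 46855627) was at 556 and 632 CPM in Treg libraries, 1273 and 1107 CPM in Th17 libraries and 542 and 689 CPM in naive libraries. Th17 libraries were high and Treg and naive libraries overlapped, with 0.95 ± 0.20 (adjusted p = 9.1e-04) in Th17 against naive, -1.00 ± 0.20 (adjusted p = 0.00107) in Treg against Th17 and -0.05 ± 0.20 without passing in Treg against naive cells. Ldhb (chromosome 6, 142490249 to 142507957) was at 14.8 and 21.2 CPM in Treg libraries, 31.3 and 40.6 CPM in Th17 libraries and 31.1 and 39.8 CPM in naive libraries. Treg libraries lay lowest and Th17 and naive libraries overlapped. Ldhb fell in Treg cells at a log2 fold change of -0.98 ± 0.22 (adjusted p = 0.00282) against naive and -1.00 ± 0.22 (adjusted p = 0.00264) against Th17 cells, and both calls ended without Treg library 1 (-0.73, adjusted p = 0.0563 and -0.75, adjusted p = 0.0518). Per length, Ldhb made up 5.95 ± 0.915% of the summed Ldha and Ldhb level in Treg, 6.05 ± 1.59% in Th17 and 10.8 ± 0.0402% in naive cells (SD, n = 2 each). The deposited lengths behind these shares are 3310 bases for Ldha and 1570 for Ldhb. The longest coding transcripts have 1815 and 1304 bases, on which the Ldhb share would be smaller.

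Slc16a3 (MCT4, chromosome 11, 120948480 to 120960868), the lactate exporter gene of highly glycolytic cells, was at 35.0 and 40.3 CPM in Treg libraries, 69.0 and 86.7 CPM in Th17 libraries and 4.13 and 3.04 CPM in naive libraries. No groups overlapped, and the naive libraries held 64 and 44 counts. The log2 fold changes were 4.43 ± 0.23 (adjusted p = 1.1e-09) in Th17 cells and 3.39 ± 0.23 (adjusted p = 2.9e-08) in Treg cells, each against naive cells, and -1.05 ± 0.19 (adjusted p = 5.0e-04) in Treg against Th17 cells. Slc16a1 (MCT1, chromosome 3, 104638668 to 104658462), a transporter gene for lactate and pyruvate, was at 35.7 and 42.7 CPM in Treg libraries, 104 and 80.3 CPM in Th17 libraries and 30.7 and 32.7 CPM in naive libraries. It was high in Th17 cells, by 1.54 ± 0.18 (adjusted p = 4.7e-06) against naive cells, and Treg cells were lower than Th17 at a log2 fold change of -1.23 ± 0.18 (adjusted p = 7.0e-05). Treg cells did not pass against naive cells (0.31 ± 0.18), except with total-count scaling (0.49, adjusted p = 0.0387). Per length, Slc16a3 made up 44.4 ± 0.642% of the summed Slc16a1 and Slc16a3 level in Treg, 41.5 ± 8.32% in Th17 and 8.63 ± 2.05% in naive cells (SD, n = 2 each).

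Pyruvate dehydrogenase kinases. The kinase genes moved in different directions. Pdk1 (chromosome 2, 71873224 to 71903858) was at 100.05 and 114 CPM in Treg libraries, 34.7 and 53.5 CPM in Th17 libraries and 457 and 388 CPM in naive libraries. Naive libraries lay far above the rest and Th17 libraries lay lowest. Pdk1 fell at a log2 fold change of -3.26 ± 0.21 (adjusted p = 1.1e-08) in Th17 cells and -1.98 ± 0.20 (adjusted p = 2.2e-06) in Treg cells, each against naive cells, and stood higher in Treg than Th17 cells by 1.28 ± 0.20 (adjusted p = 1.6e-04). Pdk2 (chromosome 11, 95026258 to 95041354) was at 23.1 and 20.8 CPM in Treg libraries, 4.02 and 6.39 CPM in Th17 libraries and 6.98 and 6.99 CPM in naive libraries. Treg libraries stood apart, by 1.65 ± 0.26 (adjusted p = 1.6e-04) against naive and 2.08 ± 0.27 (adjusted p = 2.6e-05) against Th17 cells, and Th17 against naive did not pass (-0.42 ± 0.27). Pdk3 (chromosome X, 93764607 to 93832201) was at 26.8 and 27.8 CPM in Treg libraries, 41.4 and 41.2 CPM in Th17 libraries and 15.5 and 20.3 CPM in naive libraries. It was highest in Th17 cells, rising by 1.21 ± 0.19 (adjusted p = 9.9e-05) in Th17 cells and 0.61 ± 0.19 (adjusted p = 0.0199) in Treg cells, each against naive cells, with Treg below Th17 cells at a log2 fold change of -0.60 ± 0.19 (adjusted p = 0.0216).

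The Pdk3 rise in Treg cells ended without naive library 1 (0.43, adjusted p = 0.114), Treg library 1 (0.65, adjusted p = 0.0668) or without Treg library 5 (0.59, adjusted p = 0.0853). Its difference between Treg and Th17 cells ended when Th17 library 1 (adjusted p = 0.0926) or 5 (0.0827), or Treg library 1 (0.129) or 5 (0.0853), was left out. Per length, the makeup of the summed Pdk1, Pdk2 and Pdk3 level differed in each type. Pdk1 held 43.8 ± 2.64% in Treg, 23.9 ± 5.04% in Th17 and 85.4 ± 3.26% in naive cells (SD, n = 2 each). Pdk2 held 22.2 ± 2.37% in Treg, 6.95 ± 1.62% in Th17 and 3.49 ± 0.278% in naive cells. Pdk3 held 34.0 ± 0.268% in Treg, 69.1 ± 6.66% in Th17 and 11.1 ± 2.98% in naive cells.

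**Figure D4:**
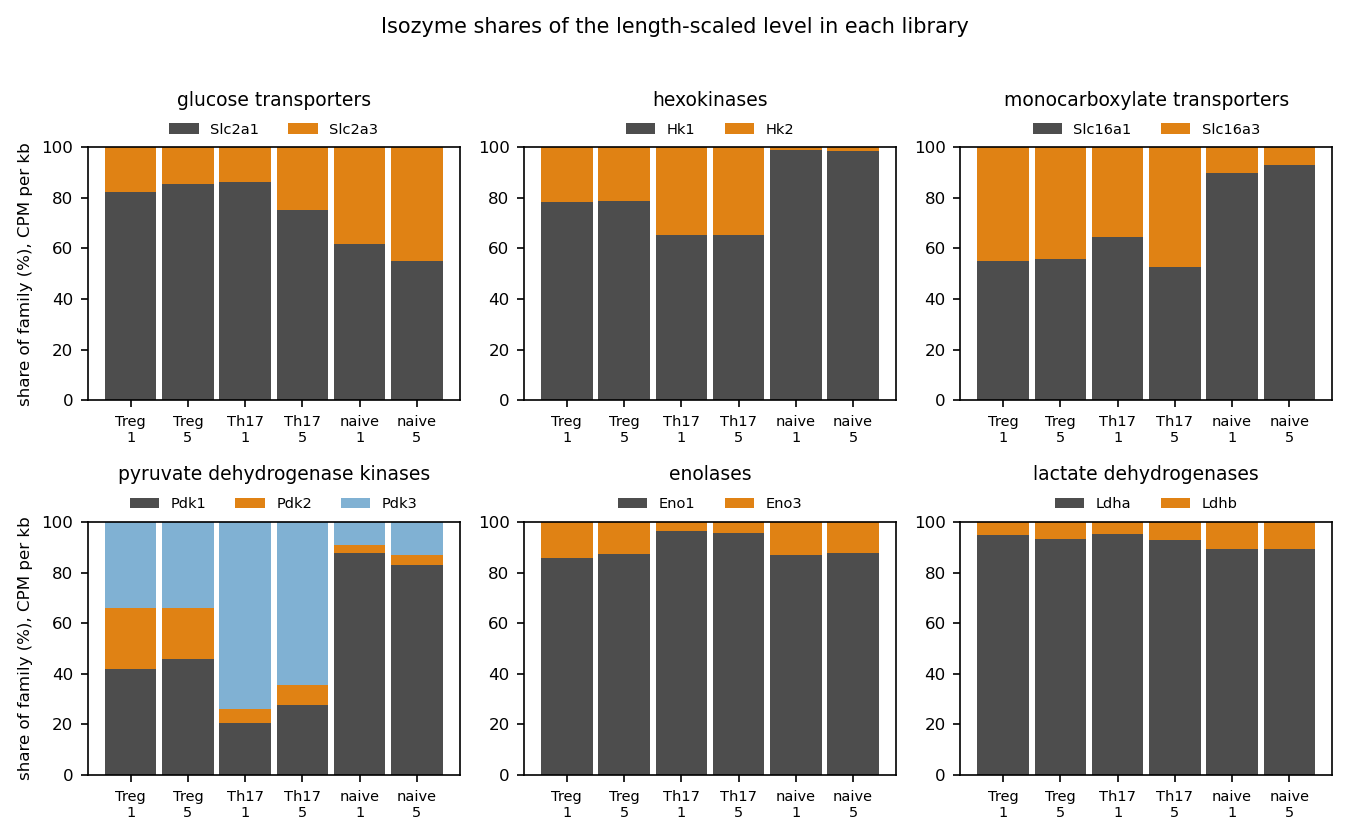
Share (y axis, %) of each gene in the summed CPM per kb of the genes shown for its family, in each Treg, Th17 and naive library. Hk2 and Slc16a3 take a larger share in Treg and Th17 than in naive libraries, and Pdk1 gives way to Pdk3 in Th17 libraries and to both Pdk2 and Pdk3 in Treg libraries.

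Pyruvate entry and oxidation. Pdha1 (chromosome X, 160122209 to 160138413), the E1 alpha subunit gene of pyruvate dehydrogenase, was at 142 and 178 CPM in Treg libraries, 157 and 144 CPM in Th17 libraries and 167 and 193 CPM in naive libraries and passed in none of the comparisons (-0.26 in Th17 cells and -0.17 in Treg cells, each against naive cells, 0.09 in Treg against Th17 cells). Mpc1 and Mpc2 encode the subunits of the mitochondrial pyruvate carrier. Mpc1 (chromosome 17, 8282904 to 8297661) was at 9.39 and 9.28 CPM in Treg libraries, 18.7 and 18.2 CPM in Th17 libraries and 14.0 and 12.7 CPM in naive libraries. Treg libraries were lowest, and Mpc1 fell in Treg against Th17 cells at a log2 fold change of -0.98 ± 0.22 (adjusted p = 0.00250). It did not pass against naive cells in Th17 (0.47 ± 0.22) or Treg cells (-0.52 ± 0.22), except as higher in Th17 cells with total-count scaling (0.70, adjusted p = 0.0143). The Mpc1 values are uncertain because of its pseudogene copies (above). Mpc1 and its copies together came to 21.5 and 23.0 CPM in Treg, 42.4 and 51.7 CPM in Th17 and 24.7 and 27.3 CPM in naive libraries. That sum was not tested. Mpc2 was at 28.2 and 32.0 CPM in Treg libraries, 31.1 and 32.5 CPM in Th17 libraries and 32.8 and 52.1 CPM in naive libraries, where naive library 5 lay far above the others. Mpc2 did not pass in Th17 (-0.42 ± 0.21) or Treg cells (-0.50 ± 0.21) against naive cells or in Treg against Th17 cells (-0.08 ± 0.21), but without naive library 1 it was lower in Th17 (-0.72, adjusted p = 0.00880) and Treg cells (-0.79, adjusted p = 0.00752) than in naive cells.

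Pentose phosphate branch, oxidative arm. G6pdx, Pgls and Pgd encode the steps that make NADPH, from glucose 6-phosphate to ribulose 5-phosphate. G6pdx (chromosome X, 74409483 to 74429194), the rate-limiting dehydrogenase, was at 52.4 and 55.7 CPM in Treg libraries, 65.3 and 62.6 CPM in Th17 libraries and 32.4 and 38.9 CPM in naive libraries. Pgls, the lactonase, was at 99.2 and 96.0 CPM in Treg libraries, 98.6 and 106 CPM in Th17 libraries and 56.9 and 67.5 CPM in naive libraries. Pgd was at 132 and 124 CPM in Treg libraries, 173 and 127 CPM in Th17 libraries and 82.6 and 91.5 CPM in naive libraries. In all 3 genes every Th17 and Treg library lay above every naive library. In Th17 against naive cells G6pdx rose by 0.84 ± 0.16 (adjusted p = 5.3e-04), Pgls by 0.72 ± 0.15 (adjusted p = 0.00111) and Pgd by 0.78 ± 0.17 (adjusted p = 0.00128). In Treg against naive cells G6pdx rose by 0.60 ± 0.16 (adjusted p = 0.00878), Pgls by 0.65 ± 0.15 (adjusted p = 0.00346) and Pgd by 0.55 ± 0.17 (adjusted p = 0.0175). The Treg rise of G6pdx ended without Treg library 5 (0.57, adjusted p = 0.0642), and that of Pgd without naive library 1 (0.48, adjusted p = 0.0778), Treg library 1 (0.52, adjusted p = 0.107) or without Treg library 5 (0.61, adjusted p = 0.0551). In Treg against Th17 cells none of the 3 passed, at -0.24 ± 0.16 (G6pdx), -0.07 ± 0.15 (Pgls) and -0.23 ± 0.17 (Pgd).

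Pentose phosphate branch, non-oxidative arm. Tkt (chromosome 14, 30548359 to 30574720), transketolase, which links pentoses back to glycolysis, was at 293 and 319 CPM in Treg libraries, 398 and 405 CPM in Th17 libraries and 146 and 143 CPM in naive libraries. Groups did not overlap, and Tkt rose by 1.48 ± 0.16 (adjusted p = 2.4e-06) in Th17 cells and 1.08 ± 0.16 (adjusted p = 7.7e-05) in Treg cells, each against naive cells. In Treg against Th17 cells it did not pass (-0.39 ± 0.16, adjusted p = 0.0628), but it passed as lower in 7 of 12 alternative analyses, with adjusted p = 0.0380 without naive library 1 and 0.0374 without naive library 5. Taldo1 (chromosome 7, 141392199 to 141402968), transaldolase, was at 136 and 141 CPM in Treg libraries, 145 and 152 CPM in Th17 libraries and 158 and 217 CPM in naive libraries, and naive library 5 lay above all the others. It did not pass in Th17 (-0.33 ± 0.17) or Treg cells (-0.43 ± 0.17) against naive cells, and without naive library 1 it was lower in both (-0.55, adjusted p = 0.0108 in Th17 and -0.64, adjusted p = 0.00689 in Treg cells). Rpia, which makes ribose 5-phosphate, was at 38.5 and 51.0 CPM in Treg libraries, 43.3 and 35.1 CPM in Th17 libraries and 37.8 and 43.6 CPM in naive libraries, with overlapping groups, and did not pass in Th17 (-0.05 ± 0.19) or Treg cells (0.14 ± 0.19) against naive cells or in Treg against Th17 cells (0.19 ± 0.19). Rpe, the epimerase, was at 40.4 and 46.5 CPM in Treg libraries, 57.3 and 60.9 CPM in Th17 libraries and 42.2 and 51.5 CPM in naive libraries. It did not pass in Th17 (0.34 ± 0.17) or Treg (-0.11 ± 0.17) against naive cells, nor in Treg against Th17 cells (-0.44 ± 0.17, adjusted p = 0.0514). Rpe passed as higher in Th17 cells with total-count scaling (0.58, adjusted p = 0.00853) and without naive library 5 (0.49, adjusted p = 0.0465), and as lower in Treg than Th17 cells in 7 of 12 alternatives, at adjusted p = 0.0346 without naive library 1 and 0.0354 without naive library 5.

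Summed levels. The 37 identifiers took 0.529 ± 0.00351% of all counts in Treg, 0.931 ± 0.0375% in Th17 and 0.410 ± 0.000305% in naive cells (SD, n = 2 each). Lower glycolysis, with 6 genes, summed to 1787 ± 57.2 CPM in Treg, 3745 ± 341 CPM in Th17 and 1460 ± 86.4 CPM in naive cells. Upper glycolysis summed to 1499 ± 68.5, 2315 ± 111 and 1100 ± 7.02 CPM in Treg, Th17 and naive cells. The 4 lactate genes summed to 689 ± 67.3, 1396 ± 115 and 686 ± 110 CPM, Treg lying within the spread of naive libraries. The 7 pentose phosphate genes summed to 812 ± 29.1, 965 ± 22.5 and 604 ± 68.3 CPM. The 6 pyruvate genes summed to 355 ± 37.0, 291 ± 6.39 and 683 ± 14.7 CPM, and without Pdk1 the other 5 summed to 248 ± 27.1, 247 ± 6.88 and 261 ± 34.7 CPM, with overlapping libraries.

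Levels per length. In Th17 cells the highest levels per kb were those of Ldha (360 ± 35.5 CPM), Pkm (342 ± 33.8 CPM) and Pgk1 (286 ± 16.2 CPM; SD, n = 2 each). In Treg cells Ldha led (179 ± 16.3 CPM), then Pkm (137 ± 11.3 CPM), Eno1 (128 ± 0.800 CPM) and Aldoa (116 ± 15.5 CPM). In naive cells Ldha led as well (186 ± 31.2 CPM), followed by Pkm (111 ± 1.65 CPM), Eno1 (111 ± 9.49 CPM) and Aldoa (102 ± 12.5 CPM). These SDs are between libraries and do not compare genes measured in the same library, and no order was tested. These orders hold for the deposited gene length only. That length exceeds the longest coding transcript unevenly, at 5379 against 2027 bases for Eno1 and 5001 against 2432 for Pkm. For Ldha it is 3310 against 1815 bases and for Pgk1 2244 against 1825, so another length can change the order. Pgam1 was at 69.5 ± 7.12 CPM per kb in Treg, 193 ± 29.1 CPM in Th17 and 22.6 ± 2.17 CPM in naive cells. Of the members, 8 share more than 10% of their annotated exon bases (10.2% to 23.1%) with another gene, and how reads in shared bases were assigned is not known here. On the same strand are Pkm with Gm49759, Pgls with Fam129c and Pfkm with Gm26513, and on opposite strands, which counting without strand would not separate, are G6pdx with Ikbkg, Rpe with Kansl1l, Pdha1 with Map3k15, Gpi1 with Gm26762 and Mpc1 with 4930506C21Rik. The highest count assigned to the partner in any library was 1377 for Ikbkg, 1164 for Gm49759 and 525 for Kansl1l, and at most 140 for the other 5.

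Other genes of the pathway. A list of 63 further genes of glucose and pyruvate metabolism had 42 tested members. In Th17 against naive cells 16 rose and 7 fell, with a median log2 fold change of 0.28. In Treg against naive cells 13 rose and 5 fell, with a median of 0.09, and in Treg against Th17 cells 7 rose and 10 fell, with a median of -0.12. These shares of called genes (54.8%, 42.9% and 40.5%) were near those of all tested genes. Above 1 CPM on average, the largest rises in Th17 cells were Slc2a6, a hexose transporter family gene (6.72 ± 0.29, adjusted p = 1.8e-10), Eno2 (above), the pyruvate carboxylase gene Pcx (2.50 ± 0.23, adjusted p = 4.9e-07) and the mitochondrial PEP carboxykinase gene Pck2 (2.19 ± 0.16, adjusted p = 3.6e-08). The largest falls in Th17 cells were the sedoheptulokinase gene Shpk (-1.95 ± 0.29, adjusted p = 5.2e-05), Pfkfb2 (-0.95 ± 0.24, adjusted p = 0.00413), the ADP-dependent glucokinase gene Adpgk (-0.89 ± 0.17, adjusted p = 4.0e-04) and Prps2 (-0.88 ± 0.20, adjusted p = 0.00139), which makes the nucleotide precursor PRPP.

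In Treg against naive cells the largest rises were Eno2 (above), Pcx (3.86 ± 0.24, adjusted p = 1.2e-08), Slc2a6 (3.12 ± 0.30, adjusted p = 1.2e-06) and Pck2 (1.60 ± 0.16, adjusted p = 1.5e-06). The largest falls were Ldhd, the D-lactate dehydrogenase gene (-2.15 ± 0.36, adjusted p = 2.6e-04), Shpk (-1.05 ± 0.28, adjusted p = 0.00754), Bpgm, the bisphosphoglycerate mutase gene (-0.88 ± 0.20, adjusted p = 0.00230), and Slc16a6 (-0.78 ± 0.21, adjusted p = 0.00904). In Treg against Th17 cells the largest rises were Pcx (1.36 ± 0.20, adjusted p = 8.1e-05), the muscle phosphoglycerate mutase gene Pgam2 (1.23 ± 0.38, adjusted p = 0.0206), Adpgk (1.15 ± 0.17, adjusted p = 8.1e-05) and Shpk (0.91 ± 0.29, adjusted p = 0.0237). The largest falls there were Slc2a6 (-3.60 ± 0.22, adjusted p = 1.5e-08), Ldhd (-1.44 ± 0.36, adjusted p = 0.00601), Slc16a6 (-1.38 ± 0.21, adjusted p = 1.4e-04) and Tigar (-1.36 ± 0.19, adjusted p = 5.3e-05), whose product lowers fructose 2,6-bisphosphate. Pcx was highest in Treg cells, at 36.6 and 36.5 CPM in Treg libraries, 14.4 and 14.1 CPM in Th17 libraries and 2.58 and 2.42 CPM in naive libraries.

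Regulators. Of 19 listed regulators 18 were tested; 8 rose and 5 fell in Th17 against naive cells, 9 rose and 2 fell in Treg against naive cells, and 4 rose and 6 fell in Treg against Th17 cells. The shares called were 72.2%, 61.1% and 55.6%, against 57.7%, 43.4% and 38.4% of all tested genes. Only some of the 18 are described here. Arnt was lowest in Th17 libraries, at 98.9 and 93.0 CPM in Treg, 60.3 and 69.9 CPM in Th17 and 86.8 and 73.2 CPM in naive libraries. Egln1 was at 82.0 and 91.8, 88.3 and 86.4, and 53.9 and 56.2 CPM in the same order, with Treg and Th17 libraries overlapping. Hif1a, the hypoxia-inducible factor that drives many glycolysis genes, was at 184 and 179 CPM in Treg libraries, 408 and 566 CPM in Th17 libraries and 92.6 and 91.0 CPM in naive libraries. It rose by 2.41 ± 0.19 (adjusted p = 6.8e-08) in Th17 cells and 0.98 ± 0.18 (adjusted p = 5.0e-04) in Treg cells, each against naive cells, and was lower in Treg than Th17 cells at a log2 fold change of -1.42 ± 0.18 (adjusted p = 2.2e-05). Egln3, a prolyl hydroxylase gene and itself a known target of that factor, was at 15.8 and 14.9 CPM in Treg libraries, 191 and 201 CPM in Th17 libraries and 0.581 and 1.80 CPM in naive libraries and was lower in Treg than Th17 cells at a log2 fold change of -3.67 ± 0.23 (adjusted p = 1.6e-08). Myc, a driver of glycolysis genes in activated T cells, was at 377 and 308 CPM in Treg libraries, 315 and 324 CPM in Th17 libraries and 88.8 and 91.7 CPM in naive libraries. Myc rose by 1.82 ± 0.17 (adjusted p = 4.5e-07) in Th17 cells and 1.92 ± 0.17 (adjusted p = 4.6e-07) in Treg cells, each against naive cells, and Treg and Th17 libraries overlapped (0.10 ± 0.16). Txnip, which restrains glucose uptake, was at 221 and 288 CPM in Treg libraries, 82.1 and 219 CPM in Th17 libraries and 981 and 1083 CPM in naive libraries. The Th17 libraries were spread widely. Txnip fell at a log2 fold change of -2.78 ± 0.34 (adjusted p = 7.2e-06) in Th17 cells and -2.02 ± 0.33 (adjusted p = 1.9e-04) in Treg cells, each against naive cells. Epas1, encoding the related factor HIF-2 alpha, was lower in Th17 than naive cells (-4.22 ± 0.44, adjusted p = 1.6e-06) and higher in Treg than Th17 cells (3.97 ± 0.44, adjusted p = 6.3e-06).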

How the data were processed

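Per the labels' protocols, RNA was taken with an RNeasy Micro kit and libraries were made with a SMARTER mRNA-Seq kit. The submitters' processing notes name STAR, cutadapt and DESeq2, without versions, and the mouse build mm10. The authors deposited raw counts per gene, which were used here, beside 6 FPKM columns that were not. All 6 libraries entered 1 fit with edgeR 4.0.16 (TMM, filterByExpr with a minimum count of 10, quasi-likelihood F-test, 3 residual degrees of freedom) in R 4.3.3, with Benjamini-Hochberg adjustment over 15543 genes. CPM uses TMM library sizes, and levels between genes use the deposited gene length, on which orders and shares per length depend. Total counts of 16458939 to 17901331 set the precision, and the floor is 3 counts. Members, lists and tests were chosen with earlier results of these data known. Genes outside the 36 are named by rule: per comparison, the 4 called genes of a fixed list with the largest change in each direction at a mean of at least 1 CPM, and any tested regulator. Alternatives were DESeq2 1.42.0, limma-voom 3.58.1, total-count scaling, no low-count filter, a fit of the 2 types compared, the library number as a block and leaving out each library. Copies were sought with blastn 2.17.0 in GENCODE M21 transcripts, whose coordinates 36 of the 37 member identifiers share, and promoters came from RefSeq (GRCm38.p6). The fit was tested on simulated data in which few genes changed and all shared 1 spread. These data are unlike that, so the simulation does not show how scaling and spread behave here.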

Additional observations from a re-analysis of the deposited data

How the results depend on the processing

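With 2 libraries per type, leaving 1 out leaves a lone library that is assumed to vary like the other types. Members called ranged from 23 to 25 in Th17 against naive, 14 to 20 in Treg against naive and 16 to 24 in Treg against Th17 cells when 1 library was left out, and all genes called ranged from 7130 to 8832, 4613 to 6581 and 4118 to 6550. No called member changed direction under the 12 alternatives. Same-numbered libraries had deviations correlated at 0.0174 (Th17 and naive), 0.214 (Treg and naive) and 0.0593 (Treg and Th17). Whether they share a mouse or a batch is not in the labels and was not tested. With the library number as a replicate block, 24, 21 and 24 members and 9116, 6974 and 6296 genes were called. Taldo1 then passed as lower in Treg than naive cells (-0.42, edgeR adjusted p = 0.0396). Members not called with all libraries changed sign as follows, and the cause was not tested; of these values the -0.61 of Slc2a3 passed the threshold. In Th17 against naive cells, leaving out 1 library put the log2 fold change of Ldhb between -0.17 and 0.21, of Rpia between -0.20 and 0.10, of Pfkfb4 between -0.09 and 0.60 and of Slc2a3 between -0.61 and 0.31, and total-count scaling gave Rpia 0.19 and Slc2a3 0.15. In Treg against naive cells, leaving out 1 library put the log2 fold change of Ldha between -0.21 and 0.14, of Rpe between -0.24 and 0.05, of Rpia between -0.07 and 0.34 and of Pfkm between 0.00 and 0.17, and total-count scaling gave Ldha 0.14, Pdha1 0.01 and Rpe 0.08. In Treg against Th17 cells, leaving out 1 library put the log2 fold change of Gpi1 between -0.08 and 0.19, of Pgd between -0.44 and 0.01, of Pfkfb3 between -0.10 and 0.33, of Aldoc between -0.86 and 0.56, of Mpc2 between -0.18 and 0.02, of Pdha1 between -0.09 and 0.25 and of Rpia between -0.03 and 0.39, and total-count scaling gave Gpi1 -0.01. Depth limits the lowest genes, Hk2 in naive cells and the other Aldoa identifier. The fit of the 2 types alone gave no value for that identifier in Treg against naive cells.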
